A study of Homo sapiens with 2 samples.

Results

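The genes of the translation machinery and of the amino acid response were examined in S2-013, an established human pancreatic cancer cell line. They were taken by gene symbol: eukaryotic initiation and elongation factors (EIF, EEF), release factors (ETF1, GSPT), tRNA methyltransferases (TRMT), aminoacyl-tRNA synthetases (a letter, or EP for EPRS1, and ARS or RS), and ASNS, DDIT3, SESN2, PSAT1 and PHGDH. Antisense genes were left out. In all, 76 of 13763 named genes matched. Of these, 74 were protein-coding and 64 reached a level of 4.78 on the log2 scale as the mean of the 2 arrays. This level, the median over all 13763 genes, is called the floor below, and 6882 genes reached it. Expression was read from total RNA on Affymetrix whole-transcript arrays. Both cultures had HOXB7, a homeobox transcription factor, knocked down and then received a plasmid for its re-expression. They differed in the inhibitor of MEK, the kinase that activates ERK: 1 array came from inhibitor-treated cells and 1 from cells left without it. Which inhibitor was used, at what dose and for how long, is not stated in the sources used here. Of the 132 protein-coding genes that the same rule finds in RefSeq, 74 had a named probe set. Those not analysed here include 14 eIF3 genes, 4 eIF2 subunit genes and 5 eIF2B subunit genes. ETF1, EEF1B2, EEF1E1 and EIF4EBP3 also had no named probe set. Of the 6 eIF4G and eIF4A genes only EIF4A3 had one.

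Translation starts when initiation factors place the initiator tRNA and the small ribosomal subunit on the start codon, and elongation factors then deliver charged tRNAs and move the ribosome along. Aminoacyl-tRNA synthetases load each tRNA with its amino acid. When amino acids run short or misfolded proteins fill the endoplasmic reticulum, kinases phosphorylate eIF2, overall initiation slows, and the transcription factor ATF4 is made. ATF4 binds C/EBP-ATF response elements near genes for amino acid synthesis, amino acid transport and many cytosolic synthetases. ERK acts on the machinery mostly by phosphorylation, through the MNK kinases on eIF4E and through RSK on eIF4B and the eEF2 kinase, which an RNA array does not read.

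The element bound by ATF4 was looked up in the promoters first, so that genes with it can be read side by side. The letters TGATGNAA, with N any base, were searched on both strands of RefSeq windows (GRCh38.p14) that run from 250 bases before to 50 bases after a gene's start site. Of the 76 genes, 64 had a window, and 9 of them (14.1%) held the motif. The cytosolic synthetases had it in 7 of 14 genes (50%), against 4.46% of all 27305 genes with a window and 2.42% of the 5622 such genes above the floor. Of the other 50 genes with a window, 2 held it. In 4 of the 7 synthetases the motif overlapped or followed the start site. Within the 200 bases before that site it was found in 3 of 14 synthetases (21.4%), against 3.20% of all windowed genes and 1.83% of those above the floor. A match describes the letters and not a bound site. The 9 stretches follow, each 30 bases long and read 5′ to 3′ on the gene's strand, with the motif or its reverse complement in capitals.
AARS1 (chr16:70289675-70289704, minus strand): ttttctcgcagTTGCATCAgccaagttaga
CARS1 (chr11:3057407-3057436, minus strand): cggggcggcggTTGCATCAgattctaggaa
GARS1 (chr7:30594834-30594863, plus strand): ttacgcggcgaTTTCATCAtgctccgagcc
IARS1 (chr9:92293692-92293721, minus strand): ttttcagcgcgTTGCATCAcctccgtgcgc
MARS1 (chr12:57488053-57488082, plus strand): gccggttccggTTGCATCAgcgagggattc
NARS1 (chr18:57621804-57621833, minus strand): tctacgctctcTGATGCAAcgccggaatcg
TARS1 (chr5:33440956-33440985, plus strand): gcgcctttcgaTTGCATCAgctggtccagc
ASNS (chr7:97872458-97872487, minus strand): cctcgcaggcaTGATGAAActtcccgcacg
EIF4E3 (chr3:71729113-71729142, minus strand): tgccatggtgaTGATGAAAgttgggctgat

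In 6 of the 9 genes, all of them synthetases, the motif had the form TGATGCAA, and in the other 3 (GARS1, ASNS and EIF4E3) the form TGATGAAA. The element of ASNS lay 68 bases before the start site. Its window is shown whole because ASNS had the highest difference of all the genes described here.
ASNS window (chr7:97872359-97872658, minus strand): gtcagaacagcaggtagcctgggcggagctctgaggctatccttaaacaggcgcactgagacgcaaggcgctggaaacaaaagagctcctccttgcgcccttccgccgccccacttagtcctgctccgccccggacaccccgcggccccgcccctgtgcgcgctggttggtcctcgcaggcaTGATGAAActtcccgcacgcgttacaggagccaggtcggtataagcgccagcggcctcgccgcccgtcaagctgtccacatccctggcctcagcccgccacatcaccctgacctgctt
ASNS, CARS1, GARS1 and TARS1 have 2 start sites in the table and EIF4E3 has 3. In each of these genes only 1 window held the motif. A gene was counted as having the motif if any of its windows held it. No match was found in the windows of DDIT3, SESN2, PHGDH or PSAT1, which says only that these letters are absent from these windows.

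With 1 array per group there is no replicate, so no test was possible and no value below has a standard error or a p-value. What can be measured is how far separate probe sets for a gene disagree on the same pair of arrays. In 155 genes whose brightest 2 probe sets were both above the floor, the gap between their log2 differences had a median of 0.13 and was at most 0.52 in 95% of genes. It holds probe error and leaves out variation between cultures. All differences are log2 values with the inhibitor minus without it, and shares of all genes refer to the 6882 above the floor.

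Translation genes as a whole differed little between the cultures. Over the 64 genes above the floor the median difference was 0.03, against 0.02 over all 6882 genes. Of the 64 genes, 34 read higher (53.1%) and 30 lower with the inhibitor, against 53.7% higher and 46.3% lower among all genes. A difference of at least 1.5-fold upwards was read in 4 of the 64 genes (6.25%), against 4.02% of all genes above the floor. Downwards it was read in 1 gene (1.56%), against 3.39%. Of the 4 higher genes, ASNS and DDIT3 belong to the amino acid response. Without the 5 genes of that response, 2 of 59 passed 1.5-fold upwards, 29 of 59 read higher and the median was -0.01. ASNS alone passed 2-fold upwards, where the share of all genes was 0.494%, and no gene passed it downwards, against 0.988%. None passed 3-fold, against 0.0436% of all genes upwards and 0.189% downwards. With the median shift of all genes (0.02) subtracted, ASNS read 0.99, just under 2-fold. For 55 of the 64 genes (85.9%) the difference lay within the 0.52 seen between probe sets, against 90.2% of all genes. Genes downstream of ERK did differ: the 8 feedback and target genes read for this check, among them DUSP6 and SPRY4, were all lower by at least 2-fold, with a median of -1.65. SPRY2, SPRY4, ETV4 and ETV5 read below the floor with the inhibitor, so their differences end in dim signals. HOXB7 read 5.85 with the inhibitor, against 5.84 without it. Of the ductal markers, the keratin genes KRT8, KRT18 and KRT19, EPCAM and CLDN4 were above the floor and KRT7 was below it, while both fibroblast markers with a named probe set, DCN and LUM, read no more than 2.49. CLDN4 read 5.85 with the inhibitor, against 4.90 without it, a difference of 0.95. Among markers of other cell types, CD68 (8.53 with the inhibitor, against 8.95 without it) and CLDN5 (5.24 with the inhibitor, against 5.30 without it) were also above the floor. The part of other cell types in the results below was not tested.

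**Figure D1:**
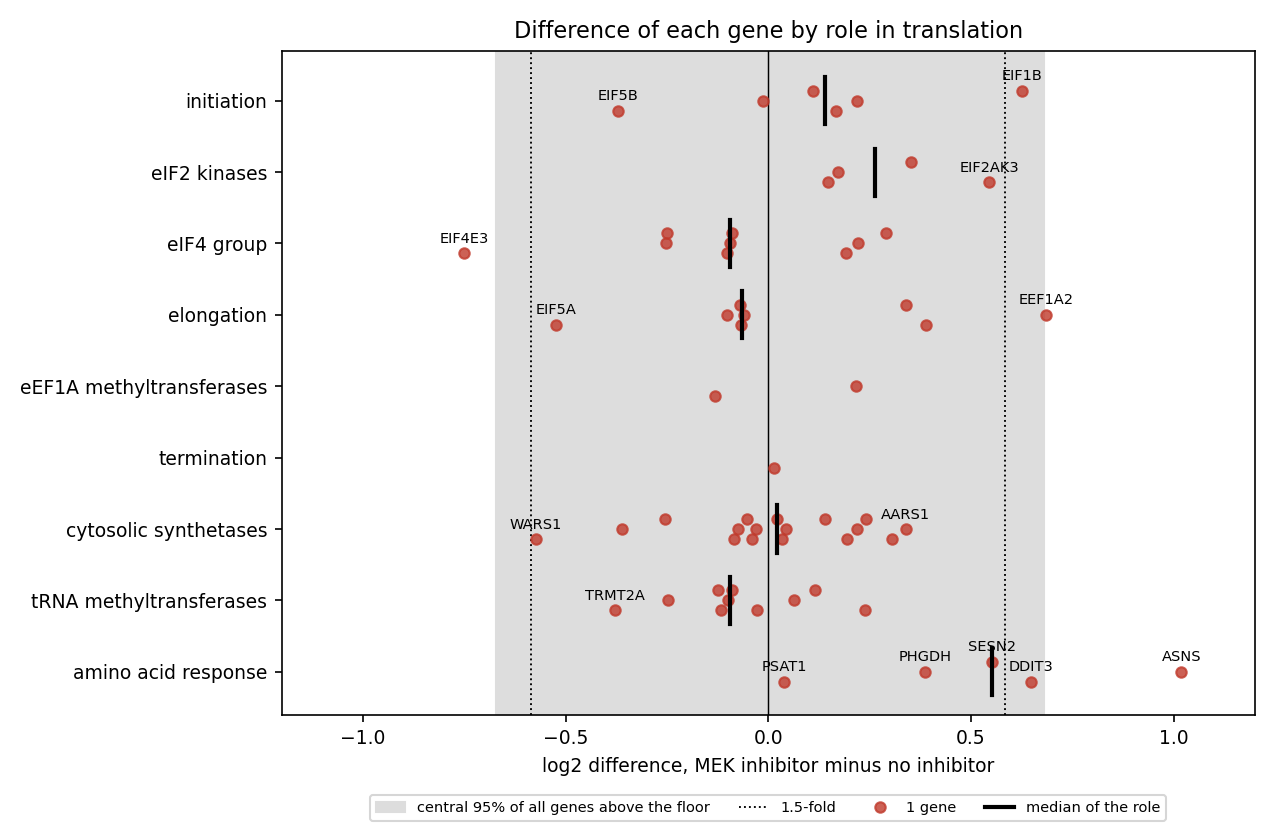
Log2 difference (MEK inhibitor minus no inhibitor, horizontal axis) of each gene above the floor, by role; bars mark medians of roles with 3 or more genes, the grey band holds the central 95% of all 6882 genes above the floor, and dotted lines mark 1.5-fold. Most genes sit inside the band, with ASNS (1.02), EEF1A2 (0.69) and EIF4E3 (-0.75) outside it.

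The 5 genes of amino acid synthesis and stress signalling had the highest median difference of all roles, 0.55. These genes were chosen by name with earlier results of these data known. All 5 read above 0, as did 53.7% of all genes, and PSAT1 did so by less than the median disagreement between probe sets. ASNS, the asparagine synthetase gene and a textbook ATF4 target, read 6.44 with the inhibitor, against 5.43 without it. This difference of 1.02 (2.03-fold) was reached by 29 of 6882 genes, ASNS included, and by 6 of the 1957 genes whose mean lay within 0.5 of its own. DDIT3, which encodes the stress-induced transcription factor CHOP, read 5.82 with the inhibitor, against 5.17 without it, a difference of 0.65. As high a difference was read in 2.85% of all genes. SESN2 encodes Sestrin2, a leucine sensor that restrains mTORC1, and read 6.41 with the inhibitor, against 5.85 without it. Its difference of 0.55 fell short of 1.5-fold.

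The enzymes of serine synthesis in the same group differed less. PHGDH, which catalyses the first step of the pathway, read 6.96 with the inhibitor, against 6.57 without it, a difference of 0.39, which is within the disagreement between probe sets. PSAT1, the aminotransferase of the next step, was nearly equal, at 10.20 with the inhibitor, against 10.16 without it. Because RNA came from whole cultures, a change in every cell and a change in the share of responding cells cannot be told apart for any of these genes.

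All 4 genes of the kinases that phosphorylate eIF2 read higher with the inhibitor, as did 53.7% of all genes. Their median was 0.26, or 0.17 without EIF2AK3, and none reached 1.5-fold. EIF2AK3 encodes PERK, the kinase that senses unfolded protein in the endoplasmic reticulum, and read 6.64 with the inhibitor, against 6.10 without it (0.55). EIF2AK4 encodes GCN2, the kinase activated by uncharged tRNA, and read 7.61 with the inhibitor, against 7.26 without it (0.35). The heme-regulated kinase gene EIF2AK1 read 0.17 higher. EIF2AK2, which encodes the double-stranded RNA kinase PKR, read 10.58 with the inhibitor, against 10.44 without it (0.15). Apart from EIF2AK3 these differences lay within the disagreement between probe sets.

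**Figure D2:**
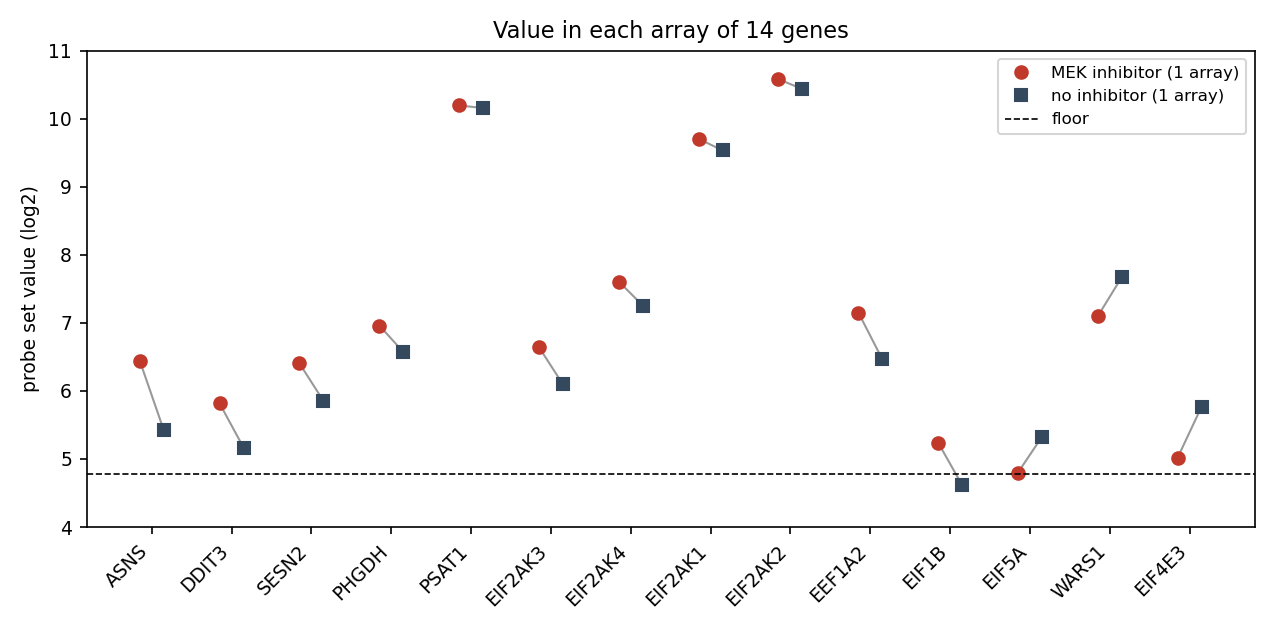
Log2 probe set value of 14 genes in the inhibitor-treated array (circles) and the array without inhibitor (squares), 1 array each, with the floor of 4.78 as a dashed line. ASNS, DDIT3, SESN2 and EIF2AK3 sit higher with the inhibitor by 0.55 to 1.02, PSAT1 is nearly level, and EIF5A, WARS1 and EIF4E3 sit lower.

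Other genes of the ATF4 list were split. Of the 33 genes listed, 14 had a named probe set and 12 reached the floor. Among these 12, 7 read higher and 5 lower, against 53.7% higher among all genes. The list holds ATF4 itself, which counts among the 7 with a difference of only 0.01. The median of the 12 was 0.06, and it turned to -0.03 when only genes above the 75th percentile of level were kept. Those at 1.5-fold upwards were the AP-1 repressor gene JDP2 (5.69 with the inhibitor, against 5.01 without it) and the lipoprotein receptor gene VLDLR (6.17 with the inhibitor, against 5.55 without it). These are 2 of 12, against 4.02% of all genes. The stress-induced transcription factor gene ATF3 read 0.58 higher, the secreted glycoprotein gene STC2 0.50 and the pseudokinase gene TRIB3 0.35. ATF4 itself was level, at 9.14 with the inhibitor, against 9.13 without it; its protein is controlled largely at translation, which the array does not read. Lower readings were found for ATF5 (-0.24), the mTORC1 inhibitor gene DDIT4 (-0.22), the serine synthesis phosphatase gene PSPH (-0.22) and the proline synthesis gene PYCR1 (-0.16).

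Chaperones and related genes of the endoplasmic reticulum, which answer to the other arms of the unfolded protein response, were listed next. Of the 15 genes listed, 7 had a named probe set, all above the floor. Their median was 0.00, from -0.20 for SDF2L1 to 0.23 for the calreticulin gene CALR. The 7 include XBP1, the transcription factor gene of 1 of those arms. It read 7.91 with the inhibitor, against 7.90 without it, and its difference is that median. Enzymes of serine and one-carbon metabolism had a median of -0.08 over 5 genes, with the mitochondrial formate synthesis gene MTHFD1L lowest (-0.34) and the cytosolic hydroxymethyltransferase gene SHMT1 highest (0.29).

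**Figure D3:**
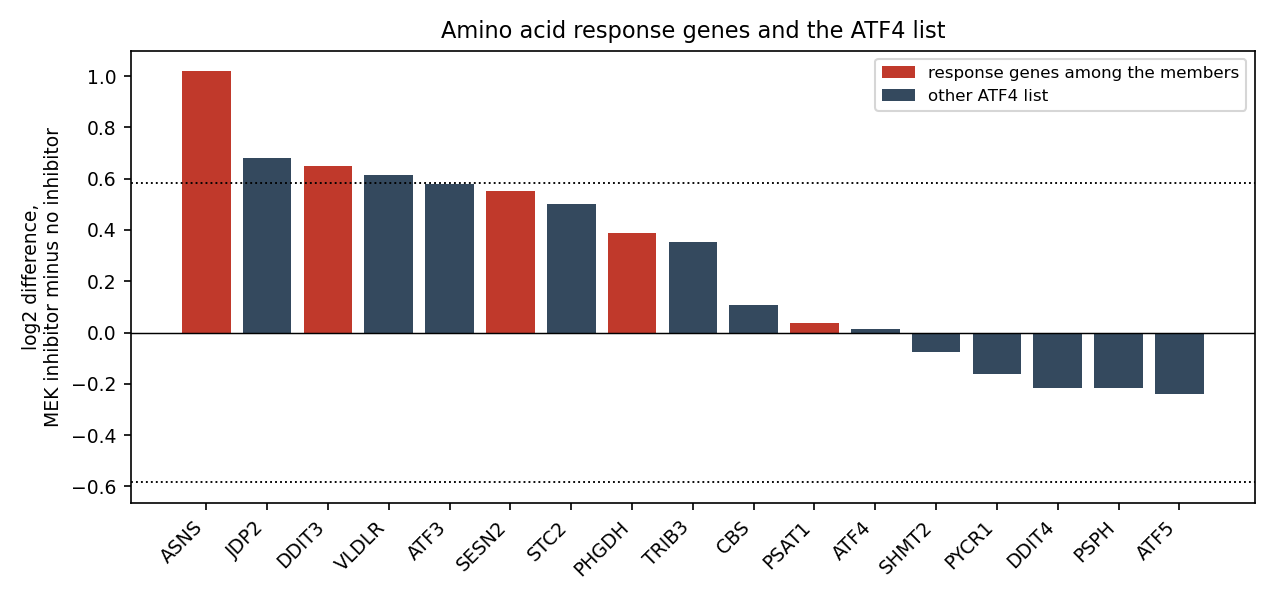
Log2 difference (MEK inhibitor minus no inhibitor) of the 5 amino acid response genes and 12 genes of the ATF4 list above the floor, ATF4 included. Bars are sorted by size, with dotted lines at 1.5-fold. ASNS is highest, and the genes of the list run from 0.68 (JDP2) to -0.24 (ATF5).

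The cytosolic synthetases were centred near 0. All 17 named genes were above the floor, and 9 read higher and 8 lower, against 53.7% and 46.3% of all genes. None reached 1.5-fold, and the median was 0.02, the same to that precision as over all genes. The alanyl-tRNA synthetase gene AARS1 had the highest difference, with 10.29 with the inhibitor, against 9.95 without it (0.34). SARS1, for serine, read 7.89 with the inhibitor, against 7.58 without it (0.31), QARS1, for glutamine, 0.24 higher and MARS1, for methionine, 0.22 higher. The leucine and histidine genes LARS1 (0.19) and HARS1 (0.14) came next. NARS1, RARS1, IARS1, CARS1, EPRS1, GARS1, TARS1 and YARS1 lay between 0.04 and -0.08, within the median disagreement between probe sets. These 8 include the asparaginyl-tRNA synthetase gene NARS1, which uses the product of ASNS and read 9.75 with the inhibitor, against 9.71 without it.

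At the low end, KARS1, whose gene supplies lysyl-tRNA synthetase to cytosol and mitochondria, read 9.45 with the inhibitor, against 9.71 without it (-0.25). VARS1, for valine, read 6.41 with the inhibitor, against 6.77 without it (-0.36), but its second probe set read 0.06. WARS1 is the tryptophanyl-tRNA synthetase gene, known to be induced by interferon. It read 7.10 with the inhibitor, against 7.67 without it, a difference of -0.57 (1.49-fold lower) just short of the threshold, and as low a difference was read in 3.55% of all genes. Its second probe set, at 4.03 with the inhibitor, against 4.18 without it, was below the floor and read -0.15.

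Synthetases with and without the motif had overlapping differences. The 7 genes with TGATGNAA in a window had a median difference of 0.02, from -0.07 for TARS1 to 0.34 for AARS1, and the 7 with a window but no match had a median of 0.03, from -0.57 for WARS1 to 0.31 for SARS1. ASNS, with the same motif, read 1.02. EIF4E3, the only other gene with it, read -0.75. The synthetases of mitochondria (symbols ending in 2, of which RefSeq lists 17) had no named probe set and are not analysed here, so the compartments could not be compared.

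**Figure D4:**
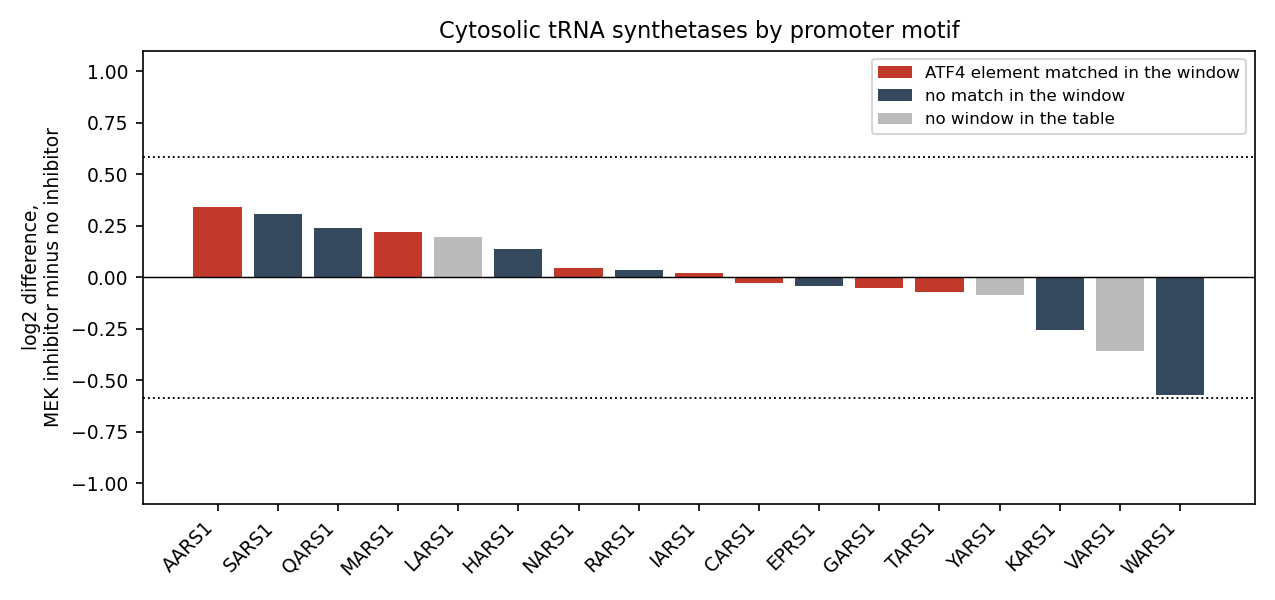
Log2 difference (MEK inhibitor minus no inhibitor) of the 17 cytosolic synthetase genes, coloured by whether the searched ATF4 element was matched in the promoter window, with dotted lines at 1.5-fold. Genes with a match (7) lie between 0.34 and -0.07, and genes without one (7) between 0.31 and -0.57.

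Accessory genes of aminoacylation and of mitochondrial translation, listed apart, also stayed under 1.5-fold. The aminoacylation list had a median of 0.18 over 6 genes, 5 of them higher, against 53.7% of all genes. The D-aminoacyl-tRNA deacylase gene DTD1 read 0.30 and the methionyl-tRNA formyltransferase gene MTFMT 0.21. AIMP1, a scaffold of the multisynthetase complex, read 0.20. Mitochondrial translation factors had a median of 0.13 over 8 genes, with the recycling factor gene MRRF (0.47) and the initiation factor gene MTIF3 (0.46) highest and the GTPase gene GUF1 lowest (-0.27).

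Among initiation factors that select the start codon and join the subunits, 4 of 6 read higher, against 53.7% of all genes. The median was 0.14. EIF1B, a paralogue of the start-codon fidelity factor eIF1, read 5.24 with the inhibitor, against 4.61 without it, a difference of 0.63 that starts below the floor. EIF1 itself was much less different, at 9.81 with the inhibitor, against 9.65 without it (0.17). These genes are close copies, and probes may read both. EIF5, which triggers GTP hydrolysis on eIF2, read 0.22, and EIF2D, which delivers tRNA without GTP, 0.11. EIF6, which keeps the large subunit apart, was level at -0.01. EIF5B, the GTPase that joins the subunits, was lowest, at 8.63 with the inhibitor, against 8.997 without it (-0.37).

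The eIF4 genes act at the mRNA cap. EIF4E, the cap-binding protein and substrate of the MNK kinases, read 5.45 with the inhibitor, against 5.16 without it (0.29). Its relative EIF4E3 was the lowest of all 64 genes, at 5.02 with the inhibitor, against 5.77 without it, a difference of -0.75. As low a difference was read in 1.96% of all genes. The repressing relative EIF4E2 read 0.22, and the transporter and repressor gene EIF4ENIF1 0.19. The binding proteins that block eIF4E until mTORC1 phosphorylates them were level: EIF4EBP1 read -0.10 and EIF4EBP2 -0.09. The helicase cofactor genes EIF4H and EIF4B both read -0.25. EIF4H had 9.32 with the inhibitor, against 9.57 without it, and EIF4B had 8.996 with the inhibitor, against 9.25 without it. The second probe set of EIF4B went the other way (0.22), so no direction can be given for that gene. EIF4A3, a helicase of the exon junction complex, read -0.10. The median of the 9 eIF4 genes above the floor was -0.10. Of the 6 eIF4G and eIF4A genes only EIF4A3 had a named probe set, so this median does not cover the others.

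Elongation factors had a median of -0.06 over 8 genes. EEF2, the translocase, was nearly equal, at 11.66 with the inhibitor, against 11.76 without it (-0.10). EEF1G, a subunit of the exchange factor, read -0.06, and 0.03 in its second probe set. EEF1A2, the form of the tRNA-delivering factor eEF1A that is normally found in muscle and neurons, read 7.15 with the inhibitor, against 6.47 without it. Its difference of 0.69 was reached by 2.46% of all genes. The ubiquitous EEF1A1 read 6.50 with the inhibitor, against 6.57 without it (-0.07). EEF1A1 has many pseudogene copies and is closely similar to EEF1A2, and levels of different probe sets cannot be set against each other.

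EEF2K, the kinase that inactivates eEF2, read 6.14 with the inhibitor, against 5.75 without it (0.39), and the exchange factor gene EEF1D read 0.34. EIF5A, the hypusine-bearing factor that relieves stalled ribosomes, read 4.80 with the inhibitor, against 5.33 without it. This difference of -0.52 ends at the floor, and EIF5A2, its paralogue, read -0.07. The release factor gene GSPT1 was level at 0.01, while GSPT2 was below the floor and ETF1 had no named probe set. Among methyltransferases of eEF1A, EEF1AKMT3 read 0.22 and EEF1AKMT2 -0.13.

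Among genes outside the machinery proper that control it, MKNK1 read 0.30 and MKNK2 -0.42; both encode MNK kinases. AKT1S1, an inhibitory subunit of mTORC1, read 0.52 and MTOR -0.08, and the median of the 7 listed control genes was 0.08 (-0.001 above the 75th percentile of level). Other cytosolic translation factors had a median of 0.05 over 9 genes. PAIP2B, which displaces poly(A)-binding protein, read 5.31 with the inhibitor, against 4.66 without it (0.64), a difference that starts below the floor. It was the only one of the 9 at 1.5-fold, which 4.02% of all genes reached upwards. PDCD4, which blocks eIF4A, read 0.39, and DENR, which recycles small subunits, -0.45.

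The tRNA methyltransferases differed little. Of 16 named genes 10 were above the floor, 3 higher and 7 lower, against 46.3% lower among all genes. Their median was -0.09, and all 10 differences lay within the 0.52 seen between probe sets. TRMT2A, which methylates uridine in the T loop, was lowest, at 5.08 with the inhibitor, against 5.46 without it (-0.38). TRMT61A, the catalytic subunit of the T-loop adenosine methyltransferase, read -0.25 and its partner TRMT6 -0.09. The mitochondrial relative TRMT61B was highest, at 6.18 with the inhibitor, against 5.95 without it (0.24). TRMT112, the shared activator of several methyltransferases, read -0.12 and its partner TRMT11 -0.12. TRMT1, which methylates guanosine, read -0.10, its relative TRMT1L 0.06, the mitochondrial enzyme gene TRMT2B -0.03 and the anticodon-loop enzyme gene TRMT5 0.12.

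Other tRNA modification genes had a median of -0.06 over 29 genes, 12 higher and 17 lower, against 46.3% lower among all genes. ELP5, a subunit of the Elongator complex that modifies wobble uridines, read 6.29 with the inhibitor, against 6.98 without it (-0.69) and was the only one of the 29 at 1.5-fold, which 3.39% of all genes reached downwards. ELP4 of the same complex read 0.41, the wobble uridine thiolation gene CTU2 0.40 and the isopentenyltransferase gene TRIT1 -0.42.

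The remaining 12 genes were below the floor and had values between 3.32 and 4.89 with differences from -0.34 to 0.46. They are EEF1AKMT1, EIF4E1B, EIF5AL1, GSPT2, TRMT9B, TRMT10A, TRMT10B, TRMT10C, TRMT13, TRMT44, the pseudogene EEF1DP3 and the readthrough locus EEF1AKMT4-ECE2. Whether such dim probe sets lay above background is unknown. Also matched by name only, and above the floor, were EIF1AD (-0.06) and the long non-coding RNA EIF3J-DT (0.22).

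**Figure D5:**
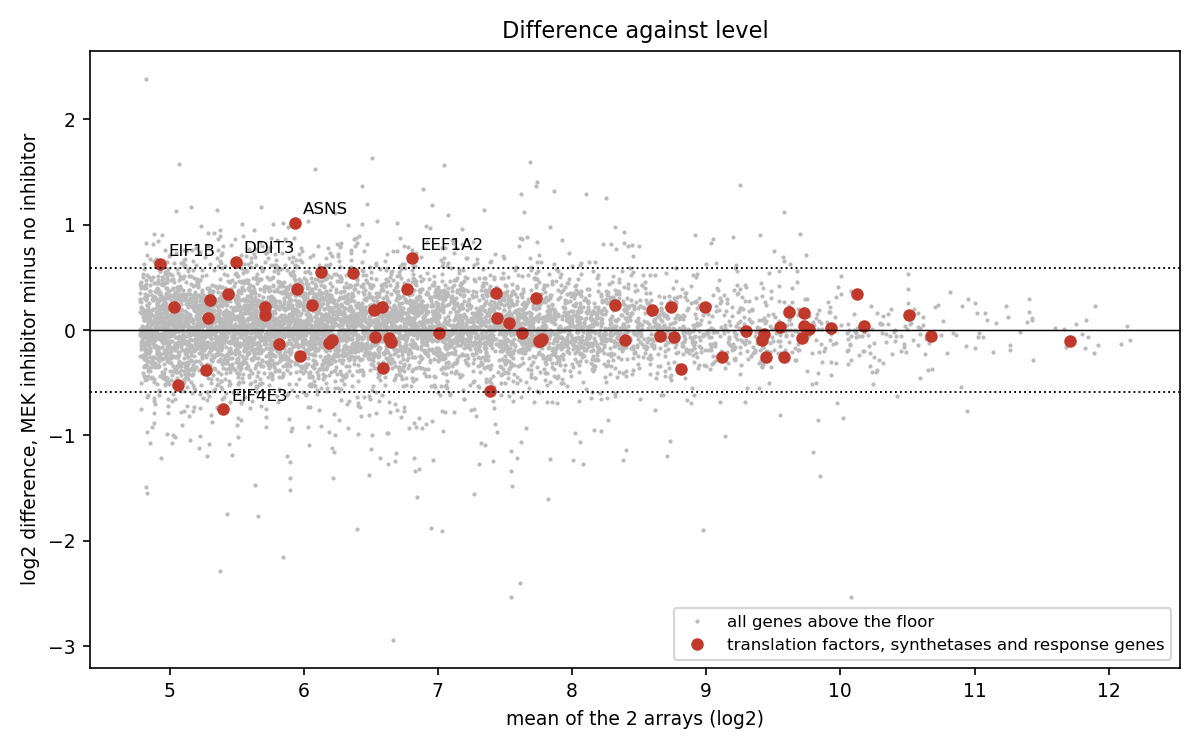
Log2 difference (MEK inhibitor minus no inhibitor) against the mean of both arrays, for all 6882 genes above the floor (grey) and the 64 translation and response genes (red), with dotted lines at 1.5-fold. The 5 labelled genes past 1.5-fold all have means below 7. Brighter red genes stay under 1.5-fold but do not all lie near 0. Among them are WARS1 (mean 7.39, difference -0.57), EIF5B (8.81, -0.37) and AARS1 (10.12, 0.34). Over all genes the standard deviation of the differences was 0.34 for means from 4.78 to 5.57. It was 0.32 for means from 7.58 to 12.16.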

How the data were processed

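The deposited table holds 1 log2 value per probe set and array. The log2 scale is inferred from the values, and every fold assumes it. Per the submitters' processing notes the authors used Affymetrix Expression Console 1.3, with no setting stated in the sources used here. According to the labels' protocols, 100 ng of RNA was labelled. Values were used as deposited, since the array with the inhibitor had a median of 3.46, against 3.49 for the other; a method that equalises arrays hides a change in total RNA. Of 53617 probe sets, 16098 had a gene symbol in the platform annotation. MIR and SCARNA symbols were left out, and the probe set with the highest mean stood for a gene. Filtering on the mean treats both directions alike.

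Each sample was assigned from its title. The members, lists and rules were chosen with earlier results of these data known, and neither counts nor medians are tests. Named are genes past 1.5-fold, extremes of each role, genes with several probe sets, fixed regulators, up to 4 genes per other list, and further members to complete a role. Alternatives were median and loess scaling, other filters, averaged probe sets, other thresholds, medians without the largest member and a shorter promoter window. Only the median and loess scaling were tried on simulated data, with planted differences. That check does not cover the counts, medians or motif shares of the main results, for which values were used as deposited. All 76 symbols were looked up by Entrez identifier in RefSeq, and promoter windows came from RefSeq GRCh38.p14. Python 3.11.15, numpy 2.4.6, pandas 2.3.3, statsmodels 0.14.6 and matplotlib 3.10.9 were used. The number of arrays limits the precision.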

Additional observations from a re-analysis of the deposited data

How the results depend on the processing

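No paired analysis was possible because the design has a single array per group, which also leaves none to omit. With the median difference or the loess trend subtracted there were 0 genes past 2-fold upwards, where ASNS had stood alone. Past 1.5-fold downwards there were 2 genes in place of 1. The added gene was the synthetase gene WARS1, at -0.598 with the median difference subtracted and -0.600 with the loess trend subtracted. The 75th percentile filter left 44 genes, with 1 past 1.5-fold upwards, 0 past it downwards and 0 past 2-fold upwards; EEF1A2 is the one that stayed. A 2-fold threshold was passed upwards by 1 gene and downwards by 0, and a 3-fold threshold by 0 in both directions. With the 75th percentile filter the medians of mitochondrial translation factors and other cytosolic translation factors turned to -0.17 and -0.092. Those of the ATF4 list and the control kinases turned to -0.03 and -0.001, and that of the eIF2 kinases fell to 0.17. The medians of all 64 genes and of the synthetases stayed between -0.02 and 0.03 over the alternatives run. That of the amino acid response genes lay between 0.47 and 0.55, but the 75th percentile filter gave no median for them. Of that group it kept only PHGDH (0.39) and PSAT1 (0.04), and left out ASNS, DDIT3 and SESN2. Within 200 bases before the start site, 21.4% of the synthetases held TGATGNAA, against 3.20% of all windowed genes. Averaged probe sets gave -0.36 for WARS1, -0.15 for VARS1 and -0.01 for EIF4B. The causes were not tested, beyond the smaller number of genes under the filter.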

Other observations

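Over all genes above the floor with a promoter window, 136 held TGATGNAA and 5486 did not, and their median differences were 0.04 and 0.03. Of the genes with the motif, 12 (8.82%) passed 1.5-fold upwards and 5 (3.68%) downwards, against 3.65% and 2.93% of those without it. ASNS is among the 12 and EIF4E3 among the 5. This comparison was not tested. The E-box CACGTG, bound by MYC and its relatives, was found on 12 of the 64 windowed translation genes (18.8%), against 13.1% of windowed genes above the floor and 8.77% of all windowed genes. Those with it ran in both directions, from EIF1B (0.63), EEF2K (0.39) and EIF4E (0.29) to EIF4H and TRMT61A (both -0.25) and, below the floor, EEF1AKMT4-ECE2 (-0.34).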
